A study of Mus musculus with 2 samples.

Results

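Expression of 6 genes of imprinted growth control was examined in mouse primordial germ cells (PGCs), from which oocytes and sperm later arise. The genes were H19, Igf2, Igf2r, Airn, Grb10 and Igf1r, chosen as the rows of the expression table whose symbol equals one of these names. All 6 were among the 18877 genes in the table. PGCs of untreated C57BL6 embryos at E9.5, isolated by an antibody to SSEA1, a carbohydrate on their surface, were profiled by RNA-seq in 2 biological replicates that form 1 group. All cells share this strain, stage and isolation, and no genotype or agent was varied. Each library was made from a pool of sorted cells. The study set these PGCs beside other stages and cell types to follow germ cell markers and imprinted genes, and those libraries were not analysed here. With 1 group, no test between groups was possible.

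Imprinted genes are transcribed mainly from the maternal or the paternal allele, and the mark that sets the allele is erased in the germ line before it is laid down anew. Igf2 is transcribed from the paternal allele and encodes a growth factor that signals through Igf1r, whereas Igf2r, transcribed from the maternal allele, carries IGF2 to the lysosome. H19 is a maternally transcribed non-coding RNA next to Igf2, Airn is the paternally transcribed antisense RNA that silences Igf2r in cis, and Grb10 encodes an adaptor that binds the receptors and restrains growth. The allele of origin was not measured in these libraries, so each value below is the sum of both alleles.

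Values are in TPM, a relative level per base of gene length, scaled to the same total in each library. Reads were recovered from the TPM steps and gene lengths, and gave 15912469 reads in replicate 1 and 5458687 in replicate 2, a depth 2.92 times larger in replicate 1. Intervals are exact 95% Poisson intervals of these reads and cover counting error only. Of the early PGC markers, 12 of 12 reached 1 TPM in each library, where 60.0% of all genes did. They ran from Dppa5a at 21079 TPM to Pou5f1 at 1.50 TPM. Erythroid markers, of which 6 of 8 listed were measured, summed to 3983 and 3765 TPM. Igf2 and H19 are abundant in mesenchyme of the embryo, and 5 of 9 listed markers of these cells were measured. Their summed level was 2.37 and 3.95 TPM, with Lum at 0 in both, and the markers not measured could not be counted. The methods describe the embryos as female, but the Y-linked gene Ddx3y was at 7.32 TPM in replicate 1 (362 reads) and 5.35 TPM in replicate 2 (93 reads). In bulk samples, fewer cells of a type and less RNA per cell cannot be told apart.

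Levels of the 6 genes ran from well under the median gene to somewhat above it. Grb10 was the highest and Airn the lowest, and 4 of 6 reached 1 TPM in each library, against 60.0% of all genes in the table. The 4 were Grb10, H19, Igf2r and Igf2. The median of the 6 mean levels was 2.51 TPM, and that of all genes was 2.65 TPM, with Airn and Igf1r far under it. Among genes with a mean of 1 TPM or more, Grb10 stood above 43.7%, H19 above 37.4%, Igf2r above 29.8% and Igf2 above 19.7%, so each of these 4 was below the median of such genes. Grb10, H19 and Igf2r had the 3 highest levels, but the replicate values of Igf2r and Igf2 overlapped.

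Grb10 (ENSMUSG00000020176.17, chr11:11930508-12038683, reverse strand) was at 5.14 TPM in replicate 1 and 5.04 TPM in replicate 2, 5.09 ± 0.0734 (SD, n = 2). These values rested on 444 and 153 reads, and 61.5% of genes were lower on the mean. The replicates differed by less than the counting error, since replicate 2 over replicate 1 was 0.980-fold (0.810 to 1.18).

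H19 (ENSMUSG00000000031.16, chr7:142575529-142578143, reverse strand, non-coding) was at 4.40 TPM in replicate 1 (3.60 to 5.34, 103 reads) and 3.53 TPM in replicate 2 (2.36 to 5.06, 29 reads), or 3.97 ± 0.621 (SD, n = 2). It ranked above 57.2% of genes. H19 is the host of the microRNA Mir675, which lies inside its exons and was at 0 TPM in both libraries. Libraries of this kind do not capture mature microRNAs, so that 0 says nothing of the mature strands. Their sequences are shown because H19 is processed to them, with the seed, bases 2 to 8, in capitals (GRCm38.p6, RefSeq, chr7, reverse strand, 142577112 to 142577133 for the first and 142577078 to 142577099 for the second).
mmu-miR-675-5p: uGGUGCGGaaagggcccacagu
mmu-miR-675-3p: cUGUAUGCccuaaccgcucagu
Both strands have different seeds.

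Igf2 (ENSMUSG00000048583.16, chr7:142650766-142666816, reverse strand) was at 2.28 TPM in replicate 1 (1.90 to 2.72, 124 reads) and 1.83 TPM in replicate 2 (1.27 to 2.54, 35 reads), or 2.05 ± 0.318 (SD, n = 2). It stood above 45.1% of all genes and above 37.9% of protein-coding genes. The growth factor gene was thus lower than its neighbour H19 in both libraries, by a ratio of H19 to Igf2 of 1.93 (1.47 to 2.53) in replicate 1 and 1.93 (1.14 to 3.25) in replicate 2. An intron of Igf2 holds Mir483, which has no row in the table. Its mature strands are shown for comparison with those of H19 (chr7, reverse strand, 142654968 to 142654989 and 142654932 to 142654952).
mmu-miR-483-5p: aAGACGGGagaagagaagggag
mmu-miR-483-3p: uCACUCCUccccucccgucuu
All 4 seeds of both hosts differ from each other.

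Igf2r (ENSMUSG00000023830.14, chr17:12682406-12769664, reverse strand) was at 3.75 TPM in replicate 1 (3.36 to 4.17, 336 reads) and 2.19 TPM in replicate 2 (1.70 to 2.77, 69 reads), or 2.97 ± 1.10 (SD, n = 2). Airn (ENSMUSG00000078247.4, chr17:12741311-12860136, forward strand), which starts inside Igf2r and runs against it, was at 0.705 TPM in replicate 1 (0.450 to 1.04, about 24 reads) and at 0 in replicate 2. A count of 0 there has an upper 95% counting limit of 0.307 TPM, and the counting intervals of the 2 libraries do not overlap. The limit of 3 reads used for ratios was 0.249 TPM. Igf2r was 5.31-fold (3.52 to 8.45) higher than Airn in replicate 1. In replicate 2 it was 8.77-fold above the limit of 3 reads for Airn, with the counting error of Igf2r left out. These ratios depend on the length taken for Airn, whose longest transcript is 1375 bases and whose merged exons are 3597 bases. For the longest transcripts, a choice made after seeing the data, Igf2r was 2.13-fold (1.41 to 3.38) above Airn in replicate 1. In replicate 2 it was 3.51-fold above the limit of 3 reads. Both genes of this antisense pair were lower in replicate 2, and their differences between the libraries exceeded those of the other 4 genes.

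The promoters of the pair are shown because one gene starts within the other. Each window runs from 250 bases before to 50 bases after a RefSeq start (GRCm38.p6), is written 5′ to 3′ on the gene's own strand, and has each CG pair, the target of DNA methylation, in capitals. The Igf2r window is chr17:12769657-12769956 and the Airn window is chr17:12741061-12741360.
Igf2r: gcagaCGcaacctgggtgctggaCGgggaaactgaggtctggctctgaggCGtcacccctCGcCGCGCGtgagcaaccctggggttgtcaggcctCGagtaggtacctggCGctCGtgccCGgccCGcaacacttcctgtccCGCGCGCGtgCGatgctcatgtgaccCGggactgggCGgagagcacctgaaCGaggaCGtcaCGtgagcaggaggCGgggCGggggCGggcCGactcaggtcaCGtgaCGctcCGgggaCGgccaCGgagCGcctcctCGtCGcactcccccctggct
Airn: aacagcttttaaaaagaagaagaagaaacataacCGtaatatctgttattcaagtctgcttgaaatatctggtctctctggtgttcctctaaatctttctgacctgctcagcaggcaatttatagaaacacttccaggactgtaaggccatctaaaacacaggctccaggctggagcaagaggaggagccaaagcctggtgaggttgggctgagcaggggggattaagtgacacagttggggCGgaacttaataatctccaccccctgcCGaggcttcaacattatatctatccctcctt
The Igf2r window held 34 CG pairs and 70.7% G and C. Of 32851 promoter windows of this length, 7.73% held as many. The Airn window held 3 CG pairs and 45.7% G and C, and 76.7% of windows held as many or more, against a median of 7. Both windows end 50 bases after the start, so CG pairs farther inside either gene were not counted. The promoter of H19 has no window in the tables used here. For the other members, windows at the annotated starts held 48 CG pairs in Igf1r, 45 and 9 in Grb10, and 7, 24, 14 and 2 in Igf2.

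Igf1r (ENSMUSG00000005533.10, chr7:67952827-68233668, forward strand), the receptor that carries the growth signal and is transcribed from both alleles, was at 0.984 TPM in replicate 1 (0.836 to 1.15, 157 reads) and 1.02 TPM in replicate 2 (0.769 to 1.32, 57 reads), or 0.9995 ± 0.0225 (SD, n = 2). It was higher than 31.7% of genes. Igf1r was the only gene of the 6 that was higher in replicate 2, by 0.02 on the log2(TPM + 1) scale.

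**Figure D1:**
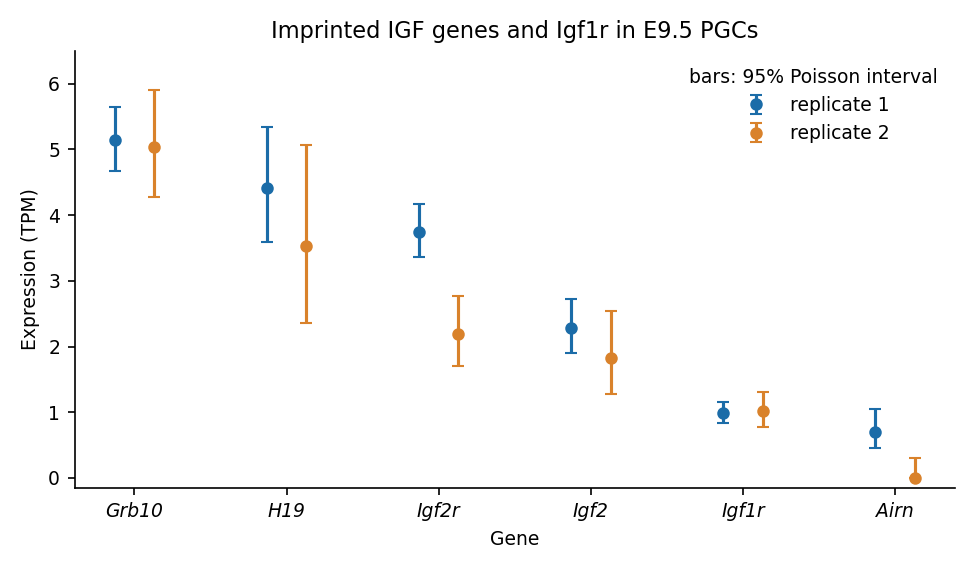
TPM of the 6 genes (y axis, linear) in each replicate (blue, replicate 1, orange, replicate 2), with 95% Poisson intervals as bars. Grb10 sits at 5.14 and 5.04 TPM, Igf2r at 3.75 and 2.19 TPM, and Airn at 0.705 and 0 TPM.

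The order from high to low was Grb10, H19, Igf2r, Igf2, Igf1r and Airn in both replicates. Neighbours in this order were not all separated. The replicate values of H19 and Igf2r overlapped, as did those of Igf2r and Igf2, while Grb10 lay above H19, Igf2 above Igf1r, and Igf1r above Airn in both libraries. The counting intervals of Grb10 and H19 overlapped in both libraries, those of Igf2 and Igf1r overlapped in replicate 2, and those of Igf1r and Airn overlapped in replicate 1. For the longest transcripts the order of the means was the same, but in replicate 1 Airn (1.84 TPM) was above Igf1r (1.45 TPM). The growth restrainers Grb10 and Igf2r were both above the growth-promoting receptor. Grb10 was 5.22-fold (4.35 to 6.31) above Igf1r in replicate 1 and 4.96-fold (3.64 to 6.85) in replicate 2, and on the log2(TPM + 1) scale the difference was 1.61 ± 0.0336 (SD, n = 2). Igf2r exceeded Igf1r by 3.81-fold (3.14 to 4.63) and 2.15-fold (1.49 to 3.11), with a log2(TPM + 1) difference of 0.96 ± 0.422 (SD, n = 2). The level of Igf2r differed between the libraries in this ratio, and that of Igf1r differed by less than its counting error.

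Of the 6 genes, 5 were lower in replicate 2 and 1 was higher. The share of all genes lower in replicate 2 is not given here, for this count or the marker counts below. The median of all genes was 1.89 in replicate 1 and 1.85 in replicate 2 on the log2(TPM + 1) scale. None of the 6 genes differed by more than 2-fold on this scale, where 10.2% of all genes did. With a pseudocount of 0.1 in place of 1, Airn did. On the TPM scale its level in replicate 1 was 2.82-fold above the limit of 3 reads in replicate 2, with counting error left out. The differences, replicate 2 minus replicate 1 on this scale, were -0.57 for Igf2r, -0.77 for Airn, -0.26 for H19, -0.21 for Igf2 and -0.02 for Grb10. Among the 5 genes with at least 100 reads, the counting interval of the fold left out 1 only in Igf2r, which was 1.71-fold (1.32 to 2.25) higher in replicate 1, against 48.5% of all 9278 such genes. Some markers of other cells also differed between the replicates. Of those listed, 4 of 4 macrophage, 5 of 6 endothelial, 5 of 9 mesenchyme and 6 of 8 endoderm markers were measured. Replicate 2 had the lower value in 4 of 4 macrophage markers (9.53 against 19.4 TPM summed). It was also lower in 4 of 5 endothelial markers (11.0 against 12.9 TPM, with Emcn at 0 in replicate 2). Pecam1, the largest part of the endothelial sums, was higher in replicate 2 (8.23 and 9.99 TPM). Mesenchyme markers were higher in 4 of 5, the fifth, Lum, being at 0. Among them the counting interval of the fold left out 1 only in Pdgfra (5.48-fold, 2.78 to 11.3). In the other lists the interval included 1 for some markers, such as Tyrobp (0.449-fold, 0.0851 to 1.53). It left out 1 for others, such as Csf1r (0.472-fold, 0.327 to 0.664). Endoderm markers summed to 3.40 and 9.74 TPM, with 4 of 6 higher in replicate 2, Afp lower (0.843 TPM and 0) and Foxa1 at 0 in both, and Rbp4 alone was at 1.30 and 5.77 TPM. The part of these cells in the differences of Igf2r and Airn was not tested.

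**Figure D2:**
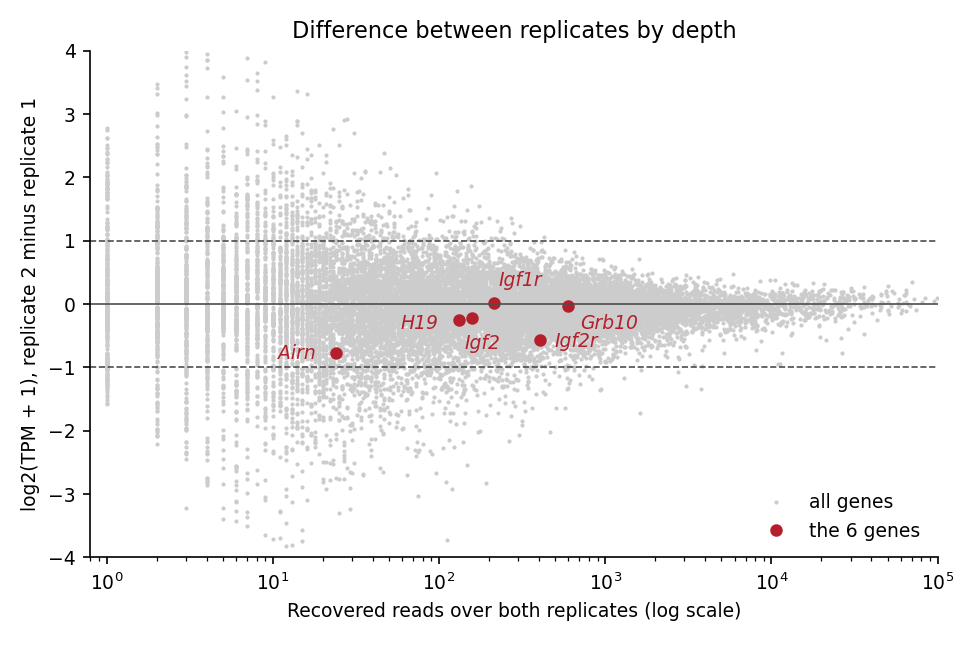
Difference between replicates on the log2(TPM + 1) scale (y axis, replicate 2 minus replicate 1) against recovered reads over both replicates (x axis, log scale), for all genes with a matched length and at least 1 read (grey) and the 6 genes (red). The dashed lines mark a 2-fold difference, all 6 genes lie between them, and 32 genes fall outside the axes.

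Gene structure limits some of these levels. Igf2 overlaps Gm49394, annotated as protein-coding on the same strand (chr7:142650769-142669942). The genes share 3596 exon bases, 62.8% of the exon bases of Igf2, and their recovered reads were the same in both libraries, 124 and 35. Exons overlapped in 3642 pairs of genes. Those pairs with at least 50 reads in replicate 1 were compared, a number not given here. Of the pairs compared, 13 had the same reads in both libraries, and 7 of these lay on opposite strands. Reads were therefore given to both genes of such a pair, and strand was not used. Airn and Igf2r share 28354 bases of span but 0 exon bases, although 114 exon bases of Airn lie inside Igf2r and 519 exon bases of Igf2r lie inside Airn. Reads from those bases cannot be told apart by strand. Lengths within 2% of the 9308 bases of merged exons were searched for Igf2r. Its reads came out whole in both libraries at 9438 bases, 130 more than annotated, and the next best length, 9298 bases, gave 331 and 68 reads that were up to 0.0235 from whole.

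Levels beside the members ranged from 0 to 447 TPM. Between H19 and Igf2, which lie 72622 bases apart, the long non-coding gene Gm33148 was at 0.466 and 1.99 TPM. Beyond Igf2, Ins2, which encodes insulin and is itself imprinted in extraembryonic tissue, was at 18.5 and 16.6 TPM (231 and 73 reads). It was 8.13-fold (6.51 to 10.2) and 9.10-fold (6.001 to 14.0) above Igf2. The Ins2 gene model spans 64726 bases, but 734 of its 1312 exon bases lie in the 2 kb nearest Igf2. Farther on, Gm7290 had 1 read in all and Ascl2 had 4 reads, all in replicate 1. On the other side of H19, Mrpl23, a mitochondrial ribosome gene, was at 183 and 191 TPM, Tnnt3 at 2.06 and 3.21 TPM, and Lsp1 at 0.610 and 0.173 TPM. Gm27483, inside H19 on the opposite strand, had 1 read in replicate 1. Near Igf2r and Airn, Mrpl18 was at 330 and 319 TPM and Tcp1, a chaperonin subunit, at 430 and 447 TPM, while Mas1, which overlaps the span of Airn, was at 0.120 and 1.37 TPM. Pnldc1 was at 8.91 and 9.56 TPM there, and on the far side of Igf2r, 4732491K20Rik was at 0.201 and 1.71 TPM, Map3k4 at 1.98 and 2.71 TPM and Agpat4 at 2.30 and 2.33 TPM.

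The genes beside Grb10 differed widely in level. Ddc, the nearest, was at 7.73 and 6.17 TPM, 1700042O10Rik had 14 reads in replicate 1 and 0 in replicate 2, and Fignl1 was at 21.5 and 21.4 TPM. On its other side Cobl was at 0 in both, Sec61g at 207 and 223 TPM and Gm12663 at 5.05 and 4.68 TPM. Beside Igf1r, 5 of the 6 nearest genes were under 3 TPM in both libraries. Gm16157 was at 0.942 and 0.223 TPM, Fam169b at 1.09 and 1.28 TPM, Ttc23 at 2.73 and 2.33 TPM, Lrrc28 at 1.26 and 2.97 TPM and Mef2a at 1.20 and 0.835 TPM, whereas Arrdc4, 503326 bases away, was at 12.2 and 13.9 TPM.

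**Figure D3:**
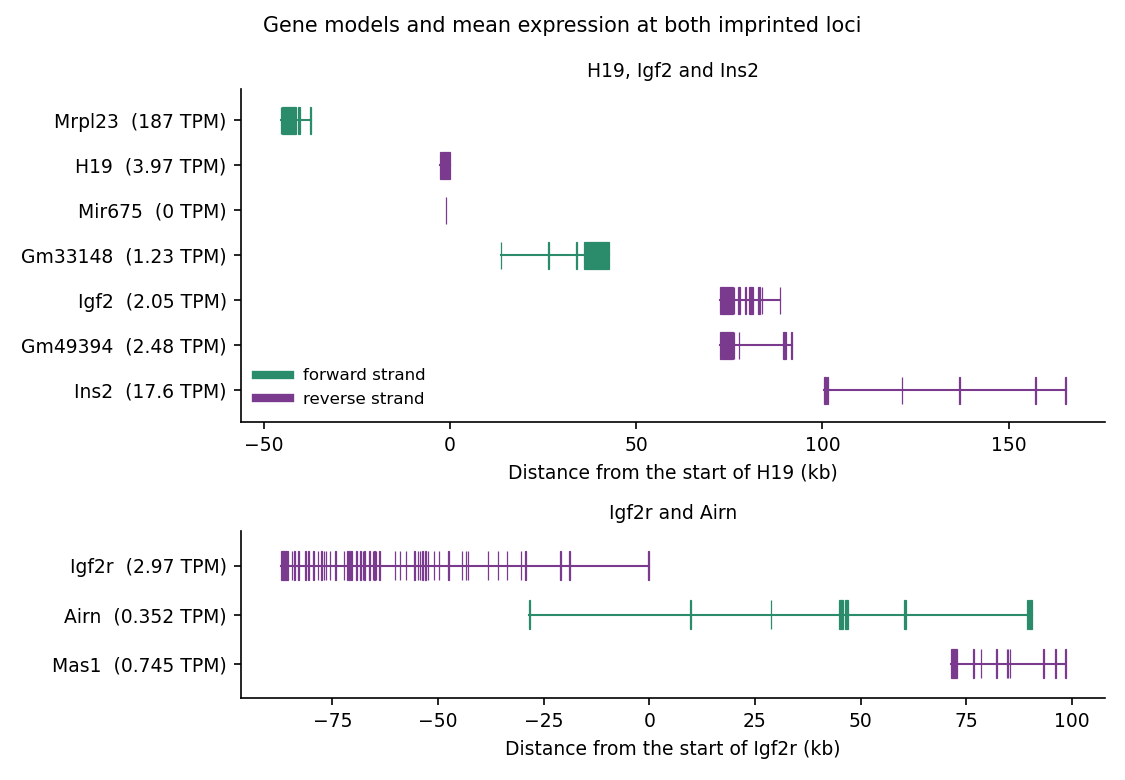
Exons (boxes) of genes at the H19 and Igf2 locus and at the Igf2r and Airn locus against distance in kb from the start of H19 and of Igf2r, with mean TPM beside each name (green, forward strand, purple, reverse strand). Igf2 and Gm49394 share their largest exon block, and the span of Airn runs over the start of Igf2r.

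The pathway around these genes was examined by listed groups. The table held 50 of the 60 listed genes. Of these, 39 reached 1 TPM in each library, where 60.0% of all genes did. The median level of the 50 was 3.31 TPM, against 2.65 TPM for all genes. The 50 are protein-coding, whereas all genes include non-coding ones, so neither comparison is with protein-coding genes alone. Among protein-coding genes, Igf2r (2.97 TPM) stood above 45.2% and Grb10 (5.09 TPM) above 55.7%. Their median is not given here. The ligands were low apart from Ins2. Igf1, the main other ligand of Igf1r, had 22 reads in replicate 1 and 3 in replicate 2 (0.234 and 0.0906 TPM). The insulin receptor gene Insr was at 0.337 TPM in replicate 1 and 1.81 TPM in replicate 2, a 5.36-fold (3.68 to 7.92) difference on the TPM scale and the largest of the receptors.

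Binding proteins hold IGFs in the extracellular space. Of the 8 measured, 6 reached 1 TPM in each library, against 60.0% of all genes. Igfbp7 led at 25.2 ± 2.81 TPM, followed by Igfbp3 at 6.56 ± 0.087 TPM, and Igfbp6 was at 0 in both. Igfbp4 (2.68 TPM), Igfbpl1 (2.24 TPM), Igfbp5 (2.13 TPM) and Igfbp2 (1.08 TPM) lay near the levels of Igf2 and Igf1r. Igfbp1 had 53 reads in replicate 1 and 2 in replicate 2 (3.66 and 0.392 TPM). Grb10 belongs to the adaptors that pass on or block the receptor signal. Of 13 measured, 8 reached 1 TPM in each library, near the 60.0% of all genes. Grb10 was below Nedd4, a ubiquitin ligase that binds it (35.9 ± 0.595 TPM), and close to Grb2 (5.29 TPM) and Sos1 (6.40 TPM). Irs1, the main substrate of the receptor, was at 0.489 TPM, Grb7, of the same family as Grb10, at 0.559 TPM, and Nedd4l, a relative of Nedd4, at 0.257 TPM.

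Most genes of the signalling arm below the receptor were detected. Of 20 genes of PI3K and mTOR signalling, 19 reached 1 TPM in each library, against 60.0% of all genes. The median of the 20 was 4.13 TPM. The highest were Eif4ebp1, a translation repressor (126 ± 4.33 TPM), Rheb, which activates mTOR (126 and 112 TPM), and the transcription factor Foxo3 (11.5 and 10.8 TPM). The lowest were Pik3r2, a PI3K regulatory subunit (0.210 TPM), Rptor, an mTOR complex subunit (1.65 TPM), and Tsc1, an mTOR inhibitor (2.03 TPM). The genes of the proteins that bind Igf2 mRNA were higher than Igf2 itself. Igf2bp3 was at 13.6 ± 3.35 TPM, Igf2bp1 at 3.97 TPM and Igf2bp2 at 3.72 TPM. Of these, 3 of 3 had their higher value in replicate 2, but the fold of Igf2bp2 was within counting error (1.26, 0.995 to 1.61). The lower value of Igf2 in replicate 2 was also within counting error (0.803-fold, 0.535 to 1.18). M6pr, which sorts the same mannose 6-phosphate cargo as Igf2r, was 10.9-fold (9.68 to 12.3) and 14.0-fold (10.9 to 18.4) above Igf2r, at 35.7 ± 7.14 TPM. Of the genes that put the mannose 6-phosphate tag on cargo, Gnptg was at 8.79 TPM, Nagpa at 1.71 TPM and Gnptab at 1.61 TPM.

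The measured factors that keep imprints were mostly among the higher genes. Of 6 listed, 5 were in the table, and 4 of these were at 1 TPM or more in each library, against 60.0% of all genes. Trim28, a co-repressor at imprinted loci, was at 64.9 ± 5.24 TPM and Ctcf, which binds between H19 and Igf2, at 16.2 ± 1.45 TPM. Setdb1 was at 17.8 ± 0.526 TPM and Zfp445 at 9.41 ± 2.98 TPM. Zfp57, which binds methylated imprinting control regions, was at 0.123 TPM with 6 reads and 1 read. Of 12 other imprinted genes of growth listed, 8 were in the table. Of these, 7 reached 1 TPM in each library, against 60.0% of all genes. The 8 were mostly above the 6 genes, with a median of 17.8 TPM. Phlda2, a placental growth gene, was at 1203 TPM, Slc38a4 at 27.3 TPM, Peg3 at 26.1 TPM, Cdkn1c at 18.1 TPM, Mest at 17.5 TPM and Gnas at 11.7 TPM, all above each of the 6. Plagl1, a transcription factor, lay among them at 2.93 TPM, and Dio3 had 1 read in all.

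**Figure D4:**
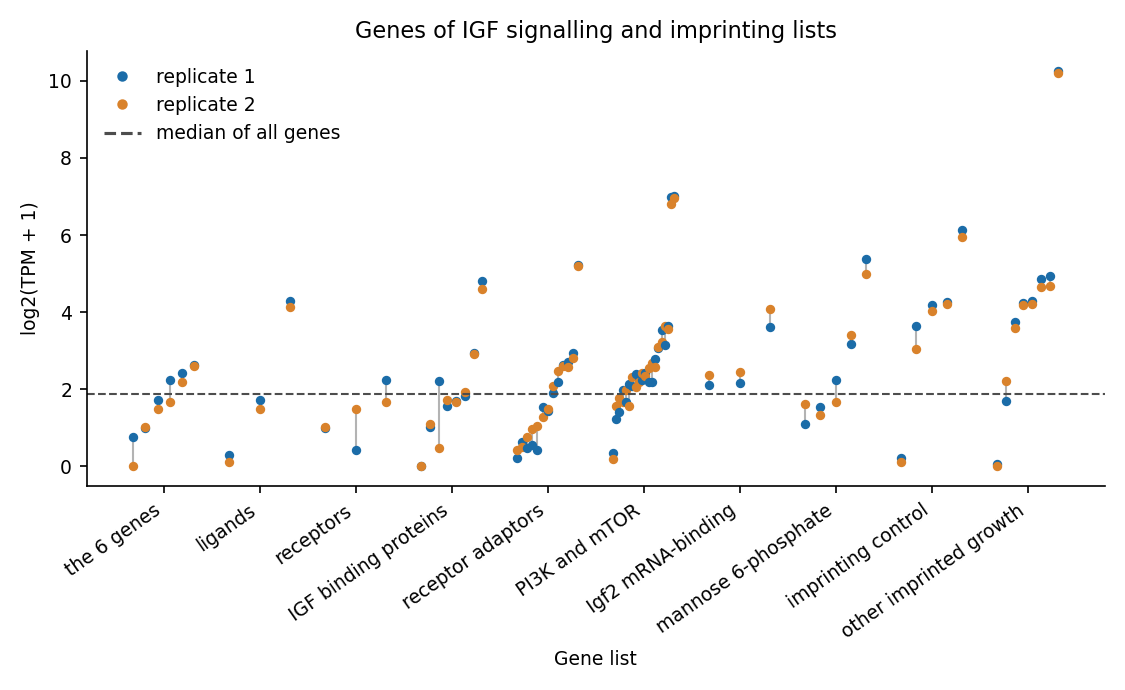
log2(TPM + 1) of each gene (y axis) in the 6 genes and 9 lists (x axis), with blue and orange points for replicates 1 and 2 joined by a line, and a dashed line for the median of all genes. Grb10 and H19 lie above that line in both replicates and Igf2, Igf1r and Airn below it. Igf2r lies above it in replicate 1 and below it in replicate 2. The imprinting control and other imprinted growth lists lie mostly above the line.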

How the data were processed

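PGCs of E9.5 embryos were profiled by RNA-seq in 2 libraries of 1 group. According to the methods, the authors aligned reads to mm10 with Hisat2, counted them with featureCounts and deposited TPM per gene. The labels name an NEBNext kit, the methods Smart-seq2 amplification, so the chemistry is uncertain. The submitters' processing notes also list Bowtie2, RSEM, DESeq2 and R 3.4.2, without a role.

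TPM was multiplied by merged exon length (GENCODE M21, GRCm38) for 18748 of 18877 symbols to recover reads. Of values under 50 reads, 96.7% and 95.8% were within 0.02 of a whole number. Intervals were exact Poisson, and Clopper-Pearson for ratios, computed with scipy 1.17.1. The recovery was checked on simulated data. Levels were compared as log2(TPM + 1), which understates differences between low genes. A limit of zero was 3 reads. Members and gene lists were chosen with earlier results of these data known. Named genes were all members, all genes of the short lists, the 3 highest and 3 lowest of the long lists, the 3 nearest genes with a row on each side, and up to 3 markers a list. Sequences came from RefSeq (GRCm38.p6). Alternatives were another pseudocount, length, scaling, threshold or filter, and each replicate alone. PGC libraries of other stages were not used here.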

Additional observations from a re-analysis of the deposited data

How the results depend on the processing

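No paired analysis was possible because the libraries form 1 group. With a pseudocount of 0.1 in place of 1, the log2 ratio of H19 to Igf2 moved from 0.70 to 0.92, that of Igf2r to Igf1r from 0.96 to 1.43 and that of Grb10 to Igf1r from 1.61 to 2.24, and 1 gene, Airn, differed by more than 2-fold between replicates. With the longest transcript as the length, the log2 ratios of H19 to Igf2 and of Grb10 to Igf1r were 0.59 and 2.04. At a TPM threshold of 5 in place of 1, 1 of the 6 genes and 14 pathway genes passed, and at 0.5, 5 and 40 passed. The share of all genes at these thresholds is not given here. Each replicate alone gave log2 ratios of 0.68 to 0.72 for H19 to Igf2, 0.66 to 1.26 for Igf2r to Igf1r and 1.58 to 1.63 for Grb10 to Igf1r. It also gave 4 to 5 of the 6 genes and 40 to 42 pathway genes at 1 TPM or more, again without the share of all genes. Of 26 levels and percentiles of the 6 genes under another scaling, length or gene set, 10 stayed within 1 SD and 16 moved by more, such as Grb10 at 9.14 TPM and Airn at 0.922 TPM for the longest transcript. With 2 replicates, each one alone lies within 1 SD of the mean by construction and was not counted. No percentile could be given for Igf1r and Airn among genes with a mean of 1 TPM or more, since their means are lower, nor for H19 and Airn, which are non-coding, among protein-coding genes. Replicate 2 had 2.92 times fewer reads, so its intervals are wider, and Airn with 0 reads there gives an upper limit only.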
